A study of Mus musculus with 8 samples.

Results

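The sites described here are intervals of open chromatin whose accessibility was lower without Pggt1b in both subsets of regulatory T (Treg) cells, effector (eTreg) and central (cTreg), and which differed less than 2-fold between the wild-type (WT) subsets. They number 369 of the 79758 sites counted by ATAC-seq, an assay whose transposase inserts sequencing adapters where DNA is accessible. Members were chosen by their measured counts. Counts were summed over the 2 libraries of a group and divided by the group's total to give CPM, counts per 1000000, and each log2 ratio was taken after adding 0.5 CPM. A member had at least 4 CPM in both WT groups, an absolute log2 ratio under 1 between WT eTreg and WT cTreg cells, and a log2 ratio of Pggt1b-deficient to WT cells of -0.75 or less in eTreg and in cTreg cells. The first 2 conditions alone were met by 30654 sites, called eligible. Ratios of Pggt1b-deficient to WT cells at the members are therefore a description and carry no test.

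The 8 libraries form 4 groups of 2: Pggt1b-deficient eTreg, WT eTreg, Pggt1b-deficient cTreg and WT cTreg cells. All cells were Treg cells sorted from spleen and lymph nodes of mouse mixed bone marrow chimeras, hosts whose blood cells derive from marrow of more than 1 donor. The labels name no Cre line, promoter, strain, age or sex, and do not say whether libraries came from separate hosts or whether both genotypes came from the same ones. The spread behind each p-value is thus that among libraries, and it may be technical only. Treg cells restrain other immune cells. cTreg cells are the resting form that recirculates through lymphoid organs, and eTreg cells are the activated form that develops from them after antigen receptor signals. The product of Pggt1b is the beta subunit of the enzyme GGTase-I, which attaches a geranylgeranyl lipid to certain proteins so that they can act at membranes. Open sites are where promoters, enhancers and other regulatory DNA lie free of tightly packed nucleosomes.

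Library totals were 2255214 and 1664702 counts in Pggt1b-deficient eTreg, 11194290 and 14974253 in WT eTreg, 8854687 and 7153991 in Pggt1b-deficient cTreg, and 12198749 and 12660311 in WT cTreg cells. A median member therefore rested on 10 and 8 counts in the 2 Pggt1b-deficient eTreg libraries, against 116 and 166 in the WT eTreg libraries. The medians in cTreg cells were 34 and 28 counts in the Pggt1b-deficient and 103 and 101 in the WT libraries. Of the members, 10 and 12 had no count in the first and second Pggt1b-deficient eTreg library, but none had no count in both. Sites are named by their positions on the mouse build mm9 as deposited. They were not assigned to genes, and neither the targeted locus nor Treg marker loci were examined here.

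Without Pggt1b, accessibility at most members was further below the WT level in eTreg than in cTreg cells, a description within limits that the choice set. Both ratios were cut at the same limit, and over eligible sites they spread more widely in eTreg cells. At a mean WT level of 6 to 8 CPM, for example, the SD was 0.62 in eTreg and 0.36 in cTreg cells. The median member had 4.08 CPM in Pggt1b-deficient and 10.6 CPM in WT eTreg cells, and 3.81 CPM in Pggt1b-deficient and 8.05 CPM in WT cTreg cells. As a percentage of the WT level the median was 40.8% in eTreg cells, with a range of 7.81% to 58.2%, and 49.7% in cTreg cells, with a range of 8.39% to 58.5%. The median log2 ratio was -1.19 in eTreg and -0.93 in cTreg cells, against -0.04 and -0.01 over all eligible sites. Together the members held 0.232 ± 0.026% of counts in Pggt1b-deficient eTreg libraries and 0.561 ± 0.023% in WT eTreg libraries (SD, n = 2 each). In cTreg libraries they held 0.201 ± 0.0029% in Pggt1b-deficient and 0.416 ± 0.012% in WT cells (SD, n = 2 each). In bulk samples of this kind, fewer cells with an open site and less accessibility per cell cannot be told apart.

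**Figure D1:**
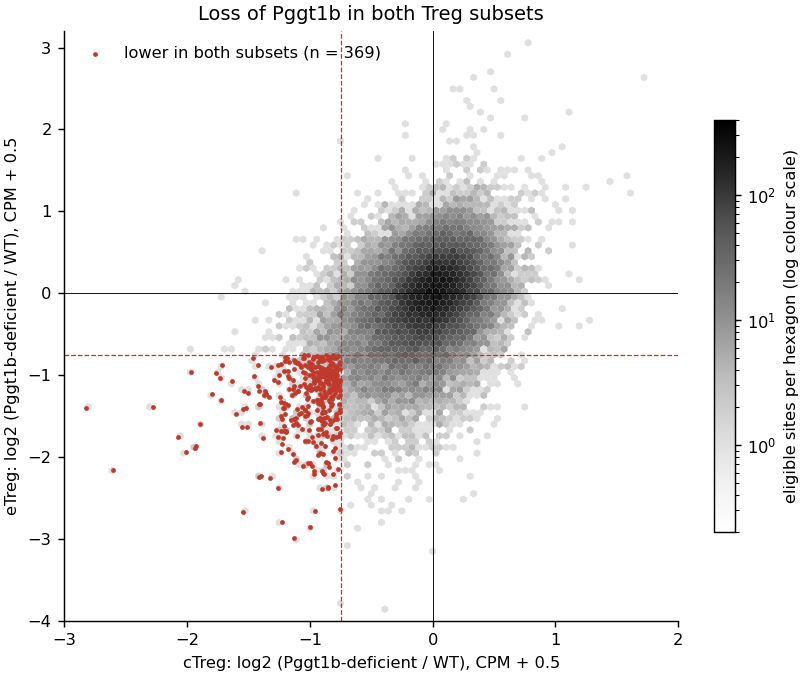
Log2 ratios of Pggt1b-deficient to WT accessibility in cTreg (x axis) and eTreg cells (y axis) at the 30654 eligible sites, as a density of hexagons on a log colour scale, with the 369 members as red points. Dashed lines mark the limit of -0.75; the members fill the lower left corner by construction, with most points near the limit on the cTreg axis and a longer spread on the eTreg axis.

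Among eligible sites, lower accessibility in both subsets was more frequent than higher accessibility in both. With the limits mirrored to 0.75 or more, 42 eligible sites were higher without Pggt1b in both subsets, against the 369 lower ones. The minimum of 4 CPM was set on the WT groups only. It leaves out sites with little WT signal that are higher without Pggt1b, so it bears on both counts. A further 2401 eligible sites met the limit in eTreg cells only and 402 in cTreg cells only. The members thus made up 13.3% of the 2770 eligible sites past the limit in eTreg cells and 47.9% of the 771 past it in cTreg cells. Only 2 eligible sites were lower in cTreg and higher in eTreg cells by these limits, and none was lower in eTreg and higher in cTreg cells. Most members lay close to the limit. The log2 ratio was -1 or less in both subsets at 107 of the 369 (29.0%) and -1.5 or less in both at 9. It was -2 or less at 32 members in eTreg and at 5 in cTreg cells. Across the members, which share their libraries, the 2 log2 ratios correlated weakly (Pearson's r = 0.16, Spearman's rank correlation 0.15, n = 369 sites), a description within limits that the choice set. Over all eligible sites, without the cut at -0.75, the 2 coefficients were 0.39 and 0.35 (n = 30654 sites).

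The libraries of the 2 genotypes were apart at most members, as the choice favours. Both Pggt1b-deficient eTreg libraries lay below both WT eTreg libraries at 358 members, which 31% of all sites also showed. In cTreg cells this held at 366 members, against 26.4% of all sites. All 4 Pggt1b-deficient libraries lay below all 4 WT libraries at 281 members, against 6.46% of eligible sites. The 3 members with overlapping cTreg libraries, named after their values were seen, are chr1:187176009-187176403, chr17:30071137-30071343 and chr16:76477888-76478009. The first of them had 7.09 and 6.01 CPM in Pggt1b-deficient and 3.04 and 24.2 CPM in WT eTreg libraries, and 3.16 and 10.6 CPM in Pggt1b-deficient and 10.5 and 18.0 CPM in WT cTreg libraries. Its 2 WT eTreg libraries stood far apart, 1 below and 1 above both Pggt1b-deficient ones.

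All 369 members passed the filter on low counts and entered a fit over 75352 sites (edgeR's quasi-likelihood test, two-sided, Benjamini-Hochberg adjustment, called at an adjusted p under 0.05). In eTreg cells 257 members were called lower without Pggt1b, where 6.43% of all sites tested were, and in cTreg cells 205, where 1.69% were. Both comparisons chose the members, so nothing is read from these counts beyond the division among members: 175 were called in both subsets, 82 in eTreg cells only, 30 in cTreg cells only and 82 in neither. Single libraries weighed on both counts. In eTreg cells, 133 members were called when Pggt1b-deficient replicate 1 was left out, and 168 when WT replicate 2 was. In cTreg cells, leaving out Pggt1b-deficient replicate 1 gave 78 and replicate 2 gave 111, while leaving out WT replicate 1 gave 72 and replicate 2 gave 86.

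To read the same measure in libraries that had no part in the choice, the limits were applied to the libraries of 1 replicate number and the ratios taken from the other. The 596 sites chosen in replicate 1 had a median log2 ratio of -0.85 in eTreg and -0.59 in cTreg cells in replicate 2, where all eligible sites had -0.04 and -0.01. The 508 sites chosen in replicate 2 had -0.80 in eTreg and -0.58 in cTreg cells in replicate 1. Both ratios were below 0 at 79.9% and 75.6% of the chosen sites, against 31.9% and 32.0% of eligible sites. Both passed -0.75 at 23.3% and 21.5% of the chosen sites, against 1.54% and 1.43% of eligible sites. In the libraries used for the choice the medians were -1.29 and -1.28 in eTreg and -0.999 and -0.970 in cTreg cells, so the median in the unused libraries had the same sign and a smaller size. There were 93 sites chosen by both replicates. All 93 are members, which summing the 2 libraries of a group makes likely in advance.

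**Figure D2:**
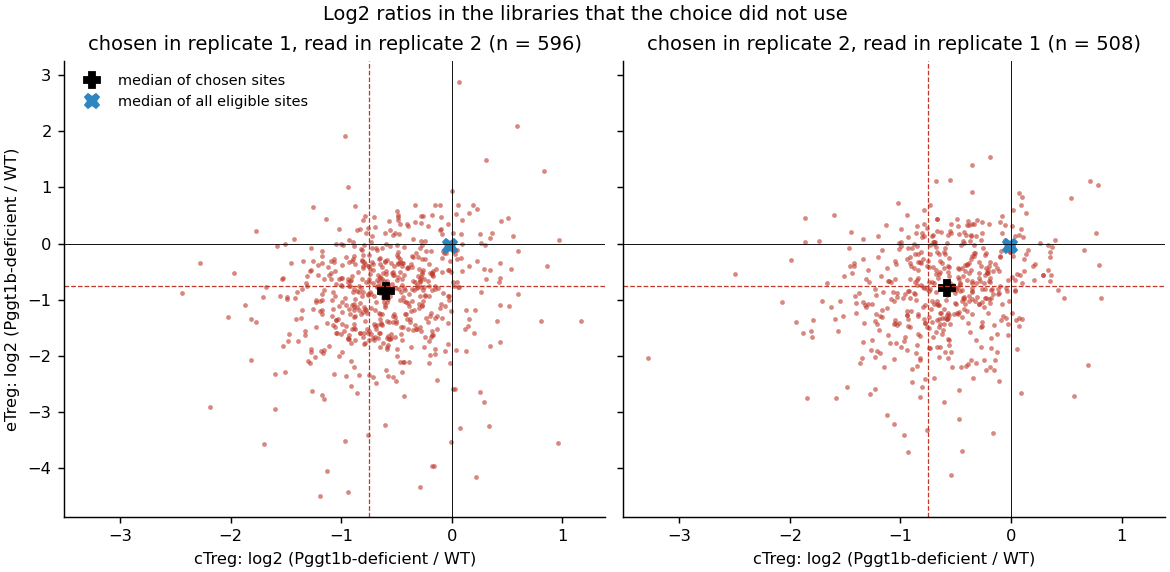
Log2 ratios of Pggt1b-deficient to WT accessibility in cTreg (x axis) and eTreg cells (y axis), read in the replicate that was not used to choose the sites (596 sites on the left, 508 on the right). The black plus is the median of the chosen sites, the blue cross that of all eligible sites, and dashed lines mark -0.75; most points lie below 0 on both axes, and 23.3% and 21.5% lie past both dashed lines.

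The sites with the lowest shared ratio, the larger of a site's 2 log2 ratios, were 34 to 316 bp wide and had a mean WT level of 5.16 to 14.5 CPM. At chr5:107450485-107450579, a 94 bp site, Pggt1b-deficient eTreg libraries had 0 and 1.2 CPM and WT eTreg libraries 6.16 and 2.4 CPM. Pggt1b-deficient cTreg libraries had 0.113 and 1.26 CPM there, against 7.54 and 5.13 CPM in WT cTreg libraries. All 4 Pggt1b-deficient values lie below all 4 WT values, but in eTreg cells they rest on 2 counts against 105, a ratio of 7.86-fold with a 95% interval of 1.36 to 319 (Clopper-Pearson, every 2 counts taken as 1 observation because both ends of a fragment may be counted, counting error only).

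At chr16:76337718-76338034, a 316 bp site, accessibility was 0.887 and 6.01 CPM in Pggt1b-deficient and 8.84 and 15.6 CPM in WT eTreg libraries. In cTreg libraries it was 3.39 and 3.35 CPM in Pggt1b-deficient and 13.4 and 15.2 CPM in WT cells. The groups did not overlap in either subset, and the log2 ratios were close, -1.89 in eTreg and -1.94 in cTreg cells. The site chr6:135185829-135186037 had 3.55 and 0.601 CPM in Pggt1b-deficient and 12.3 and 7.75 CPM in WT eTreg libraries, and 4.63 and 2.8 CPM in Pggt1b-deficient and 17.4 and 14.5 CPM in WT cTreg libraries. Of the 8 lowest sites, it alone was called lower in WT eTreg than in WT cTreg cells (log2 fold change -0.63, edgeR adjusted p = 0.0412).

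Accessibility at chr7:96461536-96461697 was 2.66 and 1.2 CPM in Pggt1b-deficient and 7.86 and 6.68 CPM in WT eTreg libraries, and 1.36 and 1.68 CPM in Pggt1b-deficient and 6.64 and 7.19 CPM in WT cTreg libraries. The site chr11:45435381-45435641 had 1.77 and 7.21 CPM in Pggt1b-deficient and 12.9 and 14.4 CPM in WT eTreg libraries, and 5.65 and 3.91 CPM in Pggt1b-deficient and 16.7 and 13.9 CPM in WT cTreg libraries. Both sites had nearly equal WT subsets, and no library of one genotype overlapped the other. At chr10:53139009-53139198 accessibility was 1.77 and 0 CPM in Pggt1b-deficient and 8.93 and 9.35 CPM in WT eTreg libraries, and 1.47 and 0.839 CPM in Pggt1b-deficient and 3.61 and 5.21 CPM in WT cTreg libraries. Its WT subsets were near the 2-fold limit of the choice, and the eTreg value without Pggt1b rests on 4 counts. The remaining 2 of the 8 lowest sites lie side by side on chromosome 8 and are described with their window.

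**Figure D3:**
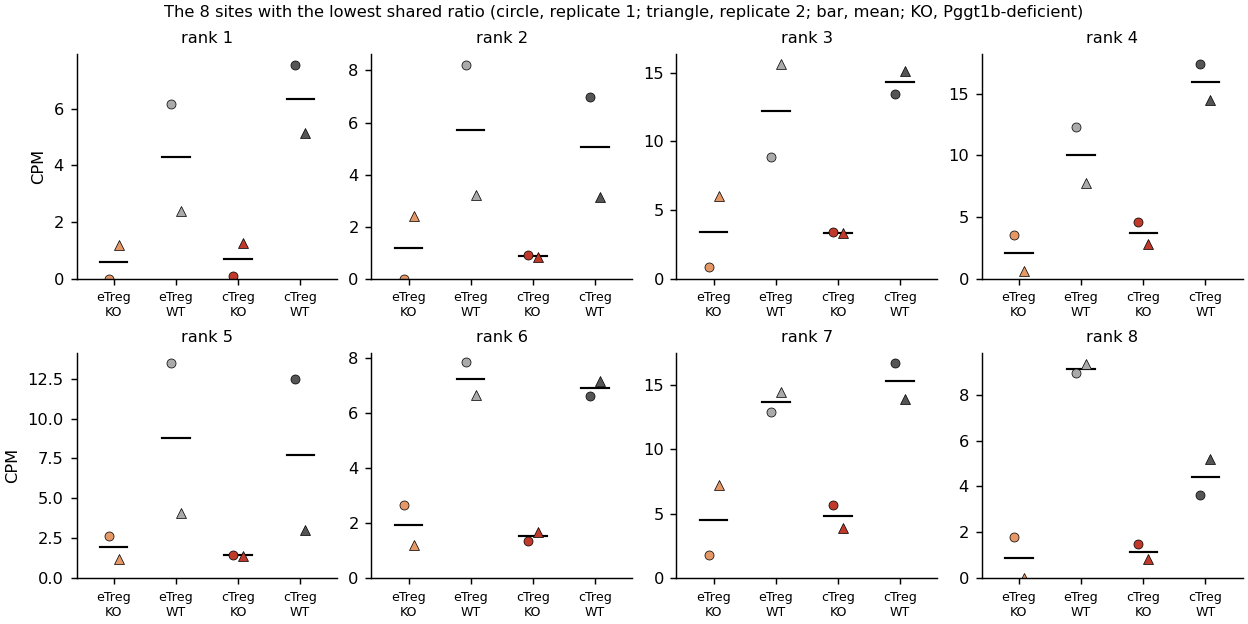
CPM in every library at the 8 members with the lowest shared ratio, each panel with its own linear axis from 0: eTreg then cTreg cells, Pggt1b-deficient (KO) left of WT. At all 8 sites the 2 Pggt1b-deficient libraries of a subset lie below its 2 WT libraries; ranks 2 and 5 show WT replicate 1 (circle) well above WT replicate 2 (triangle) in both subsets.

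Most members were more accessible in WT eTreg than in WT cTreg cells, although the choice allowed either direction up to 2-fold. The WT log2 ratio of eTreg to cTreg cells was above 0 at 296 members (80.2%), with a median of 0.43, against 50.5% and 0.00 of eligible sites. In the fit, 4456 of the 30654 eligible sites were called higher in WT eTreg cells and 3436 lower. Of the members, 154 were called higher and 8 lower, where 13.8% and 14.9% of all sites tested were. These 162 calls became 79 with WT eTreg replicate 2 left out, and 83 and 85 with WT cTreg replicate 1 and replicate 2 left out. The WT subset ratio shares its libraries with both ratios that chose the members. In the replicate not used for the choice, its median was 0.55 for sites chosen in replicate 1 and 0.32 for those chosen in replicate 2, and it was above 0 at 80.4% and 68.9% of them, against 50.9% and 49.6% of eligible sites. By class of WT ratio, members were 6.79% of eligible sites from 0.5 to 1, 0.997% from 0 to 0.5, 0.472% from -0.5 to 0 and 0.511% from -1 to -0.5.

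The same held beyond the 2-fold limit, with the same libraries shared. Of 1005 sites with at least 4 CPM in both WT groups that were 2-fold or more higher in WT eTreg cells, 289 (28.8%) met both limits of -0.75. Of 1233 sites 2-fold or more lower there, 3 (0.243%) did.

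In Pggt1b-deficient cells the median log2 ratio of eTreg to cTreg cells at the members was 0.13, with an SD of 0.59, beside 0.43 with an SD of 0.43 in the WT (n = 369 sites), and 218 members (59.1%) had a ratio above 0. The Pggt1b-deficient subset ratio is made of the WT subset ratio and the 2 ratios that chose the members, so these medians are a description. In the replicate not used for the choice, the Pggt1b-deficient subset ratio had a median of 0.24 for sites chosen in replicate 1 and 0.06 for those chosen in replicate 2, against -0.02 and -0.05 over eligible sites. In the fit, 12 members were called higher and 5 lower in Pggt1b-deficient eTreg than in Pggt1b-deficient cTreg cells, where 4.59% and 4.52% of all sites tested were. In both directions together, 4.61% of the members were called, against 9.12% of all sites tested, and the choice bears on this share. Leaving out 1 library moved the 17 calls to 32 (Pggt1b-deficient eTreg replicate 2) or 9 (Pggt1b-deficient cTreg replicate 1). All 12 higher members were also called higher in WT eTreg cells. One of them, chr2:112554848-112555157, had the highest WT level of all members: 51.0 and 46.9 CPM in Pggt1b-deficient eTreg, 82.7 and 87.1 CPM in WT eTreg, 30.0 and 25.3 CPM in Pggt1b-deficient cTreg and 49.7 and 51.9 CPM in WT cTreg libraries. There eTreg cells exceeded cTreg cells by 0.84 ± 0.15 without Pggt1b (log2 fold change ± SE, edgeR adjusted p = 0.000215) and by 0.79 in the WT (edgeR adjusted p = 6.71e-08).

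The 5 members called lower in Pggt1b-deficient eTreg cells, named after their values were seen, are chr16:76369594-76369803, chr14:7859928-7860119, chrX:130495222-130495435, chr7:31896085-31896421 and chr13:5591197-5591430. Their WT ratios of eTreg to cTreg cells were all below 0, from -0.13 to -0.81. The first had 0 and 1.2 CPM in Pggt1b-deficient and 4.82 and 7.81 CPM in WT eTreg libraries, against 4.4 and 3.49 CPM in Pggt1b-deficient and 9.1 and 10.9 CPM in WT cTreg libraries. Its log2 fold change between the Pggt1b-deficient subsets was -2.91 ± 0.84 (SE, edgeR adjusted p = 0.0226).

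The log2 ratio was lower in eTreg than in cTreg cells at 273 of the 369 members (74.0%), against 52.1% of eligible sites, with a median difference of -0.21 (eTreg minus cTreg). Because both ratios were cut at the same limit and spread more widely in eTreg cells over eligible sites, these values are a description. Whether the ratios differ was tested by the interaction of genotype and subset, in the fit over all sites. No member was called (edgeR, smallest adjusted p = 0.0796), where 1.51% of all sites tested were. At an unadjusted p under 0.05 there were 32 members (8.67%) by edgeR, 26 (7.05%) by DESeq2 and 22 (5.96%) by limma-voom, against 15.1%, 10.7% and 12.9% of all sites tested, and neither of the other tools called any at an adjusted p under 0.05. The choice of sites lower in both subsets bears on this count. Without Pggt1b-deficient eTreg replicate 2, 10 members (2.71%) were called, against 2.61% of all sites in the same fit, and 1 member was called when either Pggt1b-deficient cTreg replicate was left out. These outcomes do not show that the ratios are equal.

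The most negative interaction was at chr12:109443307-109443556, with 0.443 and 1.2 CPM in Pggt1b-deficient and 8.22 and 10.5 CPM in WT eTreg libraries. In cTreg libraries the site had 2.26 and 2.38 CPM in Pggt1b-deficient and 5.25 and 6 CPM in WT cells. Its interaction log2 fold change was -2.35 ± 0.80 (SE, edgeR adjusted p = 0.133). At the 2 next, chr16:76369594-76369803 and chr14:7859928-7860119, it was -2.31 ± 0.95 and -2.30 ± 0.92. In the other direction stood chr1:58449344-58449702, the member with the lowest cTreg ratio, at 2.00 ± 0.87 (edgeR adjusted p = 0.257). It had 0.887 and 4.81 CPM in Pggt1b-deficient and 5.18 and 9.28 CPM in WT eTreg libraries, and 0.226 and 1.12 CPM in Pggt1b-deficient and 6.56 and 8.29 CPM in WT cTreg libraries. The next were chr16:76562208-76562430 at 1.07 ± 0.79 and chr6:134849404-134849578 at 1.06 ± 0.58. The Pggt1b-deficient eTreg libraries differed several-fold from each other at all 3.

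Counting error is smallest, relative to the value, at sites with high counts, though libraries of a group can still differ there. The 4 members with the highest WT level had 38.0 to 87.8 CPM in every WT library. At chr10:74685208-74685748, a 540 bp site, Pggt1b-deficient eTreg libraries had 40.8 and 39.6 CPM and WT eTreg libraries 76.7 and 87.8 CPM. Pggt1b-deficient cTreg libraries had 26.2 and 26.1 CPM there, against 48.3 and 45.6 CPM in WT cTreg libraries. The 4 groups did not overlap, and the 2 libraries of each agreed closely in CPM. The site chr4:53928094-53928531 likewise had 30.2 and 36.0 CPM in Pggt1b-deficient and 55.7 and 58.2 CPM in WT eTreg libraries, and 23.3 and 24.6 CPM in Pggt1b-deficient and 42.4 and 47.6 CPM in WT cTreg libraries. At chr1:143794403-143794925 accessibility was 13.3 and 26.4 CPM in Pggt1b-deficient and 49.8 and 38.0 CPM in WT eTreg libraries, and 38.6 and 25.7 CPM in Pggt1b-deficient and 78.9 and 46.7 CPM in WT cTreg libraries. This site was higher in WT cTreg than in WT eTreg cells, unlike the other 3.

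Members were rarely wide. Their median width was 204 bp, against 246 bp for eligible sites, and 2 of them (0.542%) were over 800 bp, against 8.3% of eligible sites. The widest was chr7:59260922-59261911 with 989 bp. It had 31.9 and 21.6 CPM in Pggt1b-deficient and 51.9 and 45.3 CPM in WT eTreg libraries, and 13.1 and 13.4 CPM in Pggt1b-deficient and 24.3 and 26.5 CPM in WT cTreg libraries. The second, chr13:114397047-114397919, was 872 bp wide and had 4.43 and 19.2 CPM in the 2 Pggt1b-deficient eTreg libraries, against 29.1 and 29.5 CPM in the WT eTreg libraries. The other 2 of the 4 widest, chr8:28282548-28283344 and chr17:67543155-67543813, measured 796 and 658 bp, with log2 ratios of -1.38 and -1.27 in eTreg and -1.01 and -1.24 in cTreg cells.

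The share of eligible sites that were members was highest from 6 to 8 CPM and smaller above that. It was 1.44% from 4 to 6 CPM, 2.12% from 6 to 8 CPM, 1.67% from 8 to 12 CPM and 1.41% from 12 to 20 CPM, but 0.793% from 20 to 40 CPM and 0.377% from 40 to 80 CPM, and none of 2274 eligible sites with 80 CPM or more was a member. The spread of the log2 ratios over eligible sites was also smaller at high level, with an SD of 0.62 in eTreg and 0.36 in cTreg cells from 6 to 8 CPM, and 0.24 and 0.16 at 80 CPM or more. Width moved with level: from the lowest to the highest of 4 classes of members by WT level, the median width was 144, 170, 221 and 343 bp. The part of counting noise in these shares was not tested. Among the members themselves, the median log2 ratio in eTreg cells was -1.18, -1.31, -1.20 and -1.17 in the same 4 classes. In cTreg cells it was -0.94, -0.91, -0.93 and -0.94. Both ratios were cut at the limit of the choice, so these medians cannot show whether the ratios follow the WT level. The lowest ratio of each class was -2.67, -2.98, -2.38 and -2.21 in eTreg cells. In cTreg cells it was -2.60, -2.82, -1.97 and -1.63. In both subsets it was less extreme in the highest class than in the lowest. The 4 Pggt1b-deficient libraries lay below the 4 WT libraries at 76.3%, 76.1%, 78.3% and 73.9% of the members of these classes. The choice favours this, and the share over eligible sites of all levels was 6.46%.

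Members lay on 20 chromosomes, with 1 more on an unplaced contig. Their share of eligible sites ran from 0.384% on chromosome 19, with 3 of 781, to 1.81% on chromosome 8, with 27 of 1491. It was 1.41% on chromosome 18, with 14 of 996, and 0.983% on chromosome X, with 8 of 814.

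Members had another member nearby more often than eligible sites did. Another member lay within 10 kb of 48 members (13.0%) and within 1 kb of 19 (5.15%), against 1.17% and 0.268% of all eligible sites. The nearest site of any kind was farther from members than from eligible sites, with a median of 1026 bp against 752 bp. Eligible sites that were no members also had lower ratios near a member. Within 500 bp, where 1 fragment may count at both sites, 34 such sites had a median log2 ratio of -0.30 in eTreg and -0.47 in cTreg cells. From 5 to 10 kb away, 105 sites had -0.19 in eTreg and -0.20 in cTreg cells, with both ratios below 0 at 53.3%. Beyond 200 kb, 27260 sites had -0.03 and 0.00, with both below 0 at 31.8%.

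**Figure D4:**
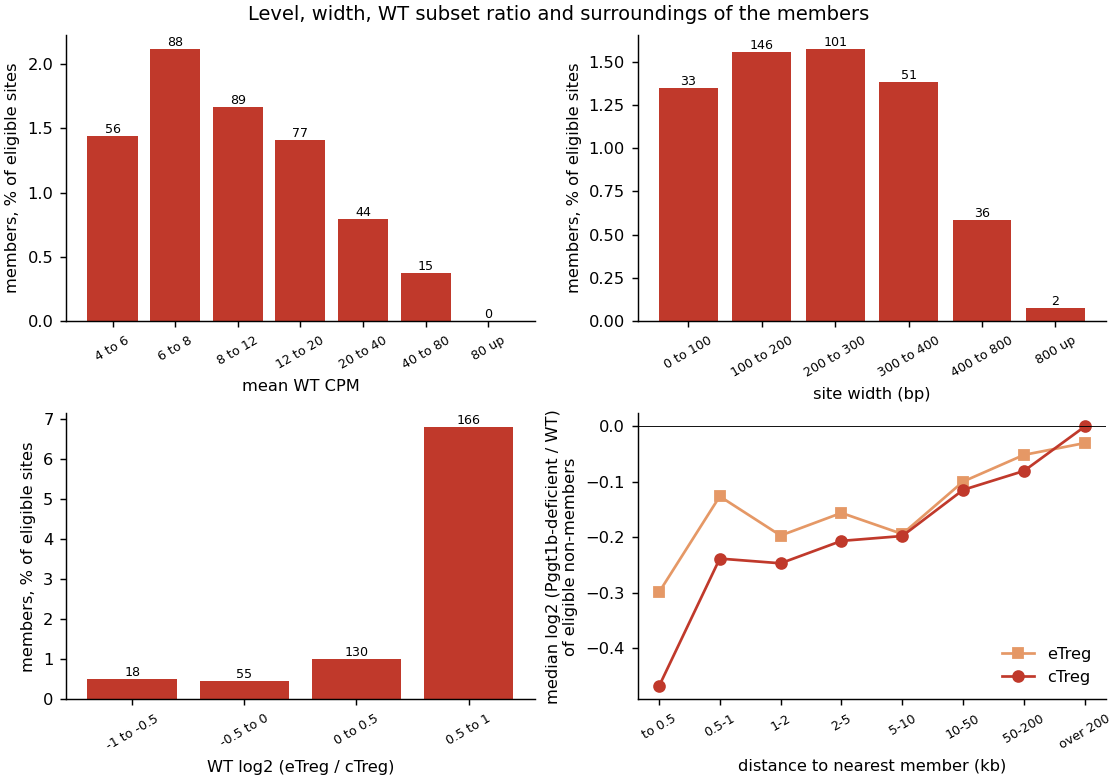
Members as a percentage of eligible sites by mean WT CPM, by site width and by WT log2 ratio of eTreg to cTreg cells, with the number of members on each bar, and, at lower right, the median log2 ratio of eligible non-members by distance to the nearest member in eTreg (squares) and cTreg cells (circles). The percentage is 6.79% in the highest class of WT ratio, 0 at 80 CPM or more, and the medians near members lie below those beyond 200 kb in both subsets.

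Of the 200 kb windows with members, 282 held 1, 29 held 2, 7 held 3 and 2 held 4. The window at 83.4 to 83.6 Mb of chromosome 9 held 4 of its 11 eligible sites. The strongest of them, chr9:83457862-83458176, had 21.3 and 24.6 CPM in Pggt1b-deficient and 49.0 and 70.1 CPM in WT eTreg libraries, and 12.9 and 14.7 CPM in Pggt1b-deficient and 29.6 and 35.0 CPM in WT cTreg libraries. The other 3, chr9:83445406-83445518, chr9:83465994-83466207 and chr9:83466597-83466803, had log2 ratios of -2.39, -1.68 and -0.88 in eTreg and -0.90, -1.19 and -1.42 in cTreg cells. Of the 7 eligible non-members of the window, all had a cTreg ratio and 4 an eTreg ratio below 0.

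The window at 108.2 to 108.4 Mb of chromosome 1 held 3 of 6 eligible sites. Its members chr1:108271670-108271832 and chr1:108272659-108272880, about 1 kb apart, were both higher in WT eTreg than in WT cTreg cells, by log2 ratios of 0.79 and 0.89, while chr1:108218051-108218318 was equal, at -0.01. At the second of them, accessibility was 3.55 and 4.81 CPM in Pggt1b-deficient and 10.9 and 11.5 CPM in WT eTreg libraries, and 2.03 and 1.68 CPM in Pggt1b-deficient and 6.64 and 5.06 CPM in WT cTreg libraries. By whole megabases, looked at after the values were seen, 41 to 42 Mb of chromosome 8 and 76 to 77 Mb of chromosome 16 held most members, 5 each, of 13 and 37 eligible sites.

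At 41.6 to 41.8 Mb of chromosome 8, 4 of 5 eligible sites were members, and there the WT libraries parted by replicate. The eligible site that was no member, chr8:41669978-41670527, parted likewise. Its WT replicate 1 exceeded WT replicate 2 by 2.22-fold in eTreg and by 2.71-fold in cTreg cells. The site chr8:41695018-41695323 had 11.1 and 18.0 CPM in Pggt1b-deficient eTreg and 11.6 and 9.78 CPM in Pggt1b-deficient cTreg libraries. In the WT, replicate 1 had 43.9 CPM in eTreg and 40.7 CPM in cTreg cells, and replicate 2 had 12.6 CPM in eTreg and 12.01 CPM in cTreg cells. WT replicate 2 was thus near the Pggt1b-deficient libraries, and the lower group value rests on WT replicate 1.

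The next 2 sites, chr8:41695488-41695524 and chr8:41695711-41695745, are 36 and 34 bp wide, and WT replicate 1 exceeded WT replicate 2 by 3.31-fold and 2.56-fold in eTreg and by 4.15-fold and 2.21-fold in cTreg cells. The fourth, chr8:41719907-41720464, had 23.1 and 19.2 CPM in Pggt1b-deficient and 68.5 and 28.7 CPM in WT eTreg libraries, and 5.87 and 8.95 CPM in Pggt1b-deficient and 34.3 and 13.1 CPM in WT cTreg libraries. Here and at the 2 narrow sites, WT replicate 2 still lay above the Pggt1b-deficient libraries of its own subset. These 4 were the only members at which a WT replicate was 2-fold or more above the other in both subsets (log2 of CPM plus 0.5), and replicate 1 was the higher at each. Among all eligible sites replicate 1 was higher by that much at 10 and replicate 2 at 10.

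**Figure D5:**
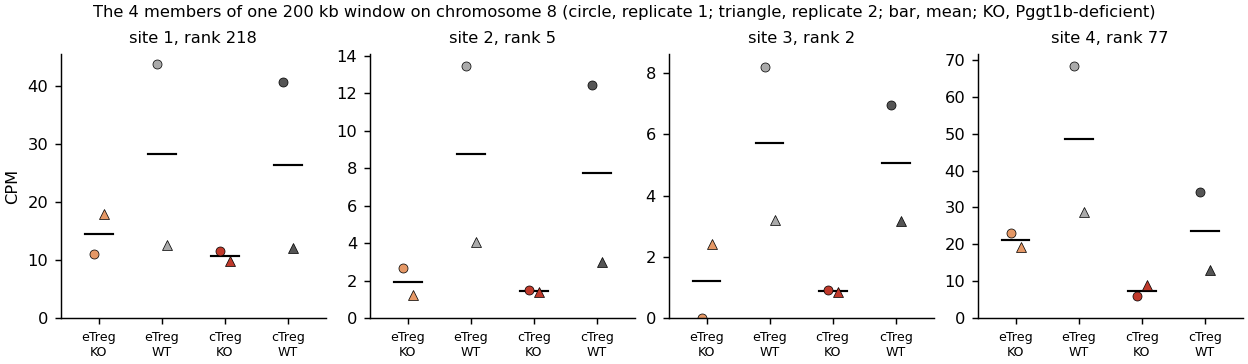
CPM in every library at the 4 members of the 200 kb window at 41.6 to 41.8 Mb of chromosome 8, in order along the chromosome, each panel with its own linear axis from 0: eTreg then cTreg cells, Pggt1b-deficient (KO) left of WT. WT replicate 1 (circles) lies above WT replicate 2 (triangles) in both subsets at all 4 sites, and at the first site WT replicate 2 lies among the Pggt1b-deficient libraries.

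The limit of -0.75 cuts a continuous range. The larger ratio was within 0.05 of it at 76 members and at 105 eligible sites just outside. The 3 nearest members, chr15:34249331-34249517, chr14:25598557-25598848 and chr2:104689114-104689338, had a larger ratio of -0.7504, -0.7515 and -0.7527. At the 3 nearest sites left out, chr16:91869546-91869936, chr6:146470019-146470291 and chr2:38192123-38192383, it was -0.7496, -0.7494 and -0.7489. Ratios in eTreg cells of the 3 left out were as low as -1.79, -1.51 and -1.28, so they missed the limit in cTreg cells only.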

How the data were processed

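Trimmomatic 0.36, MACS2 2.1.1, Picard 2.9.4, bedtools and SAMtools are listed, without roles, per the submitters' processing notes, together with build mm9 (NCBIM37). The deposited values are raw counts per site. The aligner, the shift of read ends, the peak threshold, any pooling before peak calling, and whether starts count from 0 or 1 are, as far as the sources used here go, not given. Replicate numbers come from the sample titles. CPM used column totals over all sites. edgeR 4.0.16 in R 4.3.3 fitted all 8 libraries with 1 mean per group after filterByExpr and TMM scaling (75352 sites), with 5 contrasts, each two-sided. The SE printed with an edgeR log2 fold change was derived from the test: the size of the fold change divided by the square root of the F statistic. A p-value for 2 against 2 libraries by exact permutation cannot go below 0.33, so tests rest on this fit, which pools the spread over the 4 groups. DESeq2 1.42.0, limma 3.58.1, other scalings, limits and filters, thinning, a replicate block and leaving out each library were alternatives. Members, lists and naming rules were chosen with earlier results of these data known. Named are the 8 members with the lowest shared ratio, the 4 with the highest WT level, the 4 widest, the 3 at each end of the interaction, the 3 nearest sites inside and outside the limit, and those of the 3 windows of 200 kb with most members. The fit was also run on simulated counts, with sites lowered in 1 subset at a time and the same spread for all sites. No result above rests on it.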

Additional observations from a re-analysis of the deposited data

How the results depend on the processing

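The number of members depends on the limits: it was 191 with a pseudocount of 2, 107 with a limit of -1 and 1172 with -0.5, 178 with a WT minimum of 8 CPM and 640 with 2 CPM, 185 with a WT subset ratio under 0.5 and 661 with no limit on it, and 665 with all libraries thinned to 1664702 counts, of which 202 were among the 369. TMM and DESeq2 scaling each gave 338, of which 317 and 325 were among the 369. Leaving out each library in turn gave 361 to 479. Members called lower without Pggt1b in cTreg cells numbered 122 with DESeq2, and 72 to 287 with a library left out. In eTreg cells they numbered 126 with limma-voom and group weights, and 133 to 262 with a library left out. Calls between the Pggt1b-deficient subsets numbered 4 with limma-voom, and 9 to 32 with a library left out; those between the WT subsets numbered 95 with DESeq2, and 79 to 189. Interaction calls ran from 0 to 10 with a library left out. The lone library of a group is then assumed to vary like the others. The replicate block gave 255 calls in eTreg and 206 in cTreg cells, 0 for the interaction, 17 between the Pggt1b-deficient and 154 between the WT subsets, and changed no count by over 1.5 times. Same-numbered libraries did not deviate together (r from -0.01 to 0.01 over eligible sites), except WT eTreg and WT cTreg (r = 0.13, and 0.33 over the members). The labels name no pairs, and the numbers were not taken as pairs. The replicate block sets 1 shift for all groups and does not model a link between WT libraries only. Whether same-numbered WT libraries share a source was not tested, so the ratios of the 2 subsets may not be independent. Values of single sites in the 2 Pggt1b-deficient eTreg libraries rest on few counts, a median of 10 and 8 at the members. The part of their depth in which sites pass the limit was not tested. Members also had a lower level in that group than eligible sites, with medians of 4.08 and 13.8 CPM. The 2 Pggt1b-deficient eTreg libraries were over 2-fold apart at 120 members (32.5%), against 11.9% of eligible sites. For Pggt1b-deficient cTreg libraries the shares were 5.96% and 0.744%, for WT eTreg 2.98% and 0.258%, and for WT cTreg 1.63% and 0.179%.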
